A study of Mus musculus with 34 samples.

Results

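Nsd2 knockdown (Nsd2 KD) and control (Ctrl) brown preadipocytes were compared at day 0 (D0), before they received the adipogenic cocktail. One RNA-Seq library was deposited for each, so the comparison rests on 2 of the 14 RNA-Seq libraries of the series and has no replicate check. Each of 29082 RefSeq transcripts was given as RPKM, reads counted on a transcript, scaled to its length in kilobases and to sequencing depth. Where a gene had several transcripts, the one whose RPKM averaged highest across the 14 libraries stood for it, and 11982 of 23109 genes were kept because their RPKM was at least 1 in the Ctrl D0 or the Nsd2 KD D0 library. A gene was called higher or lower when its RPKM differed by over 2-fold.

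The cells, of strain C57BL/6J, came from interscapular brown fat of newborn mice and were immortalized with SV40T, the large T antigen of the SV40 virus, which makes primary cells divide without limit. According to the labels the pups carried a floxed glucocorticoid receptor gene and the cells received a Vec or a Cre retrovirus to give WT or GR KO cells, whereas the methods describe preadipocytes of WT mice. The 2 libraries compared do not carry a label that says which virus they had received. *Nr3c1*, which encodes the glucocorticoid receptor, had an RPKM of 12.7 in the Ctrl D0 library and 14.1 in the Nsd2 KD D0 library. The Nsd2 KD cells had been infected with lentivirus expressing a short hairpin RNA against *Nsd2*, and the Ctrl cells with one expressing a control hairpin. Which of the *Nsd2* hairpins described in the methods was used for RNA-Seq is not given in the sources used here. The same 2 populations were also sequenced after 2 days of differentiation (D2), and a separate experiment sequenced cells with histone H3.3, either WT or with the K36M mutation. Apart from the choice of a transcript for each gene, neither the D2 libraries nor the H3.3 libraries were used to keep or call genes at D0.

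Nsd2 is a histone methyltransferase that deposits dimethylation on lysine 36 of histone H3 (H3K36me2), a mark of broad intergenic and genic domains. H3K36 methylation impairs the activity of PRC2, the complex that places the repressive mark H3K27me3, so that loss of H3K36me2 can let H3K27me3 spread. The K36M mutant of histone H3.3 inhibits the H3K36 methyltransferases and lowers the same mark by another route. Brown preadipocytes are fibroblast-like precursors that make collagen-rich matrix, and on induction they activate the transcription factors PPARγ and C/EBPα and fill with lipid.

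Reads were recovered from the RPKM values, with 19757822 mapped reads in the Ctrl D0 library and 17428124 in the Nsd2 KD D0 library. Intervals beside the log2 ratios are 95% Clopper-Pearson intervals from these reads. They cover counting error only, compare 2 libraries and not 2 conditions, and treat reads as independent molecules although PCR duplicates cannot be recognised. For a transcript of 1 kb, 3 reads correspond to an RPKM of 0.152 in the Ctrl D0 library and 0.172 in the Nsd2 KD D0 library. Where a library had no reads, the ratio is given as a bound against 3 reads in that library. Fewer cells that express a gene and less RNA per cell cannot be told apart in libraries of whole cultures.

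The 2 populations differed in other ways that the labels do not account for. *Xist*, the noncoding RNA that coats the inactive X chromosome, had an RPKM of 24.7 in Ctrl D0 and 67.1 in Ctrl D2, but 0.0801 in Nsd2 KD D0 and 0.0379 in Nsd2 KD D2. The other 10 libraries had *Xist* values between 3.7 and 108. The Y-linked genes *Ddx3y*, *Eif2s3y*, *Kdm5d*, and *Uty* were detected in all libraries, and *Ddx3y* had an RPKM of 4.49 in Ctrl D0 against 8.29 in Nsd2 KD D0. In addition, the median log2 ratio of Nsd2 KD to Ctrl differed between chromosomes and was similar on both days. It was -0.36 at D0 and -0.32 at D2 over the 274 genes kept on chromosome 18, and 0.27 and 0.26 over the 391 genes on chromosome 14. Across 20 chromosomes the D0 and D2 medians had a Pearson correlation of 0.91, given as a description of chromosomes that share the same 2 cell populations, and it was -0.25 between the D0 medians and those of H3.3K36M to WT cells. Whether both populations descended from 1 pool of cells is not given in the sources used here. With each gene's ratio taken less the median of its chromosome, an alternative added after the data were seen, 1272 genes were lower and 758 higher, against 1295 and 792 without it. Of 144 called genes that are named by rank or list and have a position, 5 were then within 2-fold, and all 5 had been higher (*Pparg*, *Esrra*, *Fdft1*, *Slc2a3*, and *Tnfrsf10b*). The part of these differences in the results that follow was otherwise not tested.

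**Figure D1:**
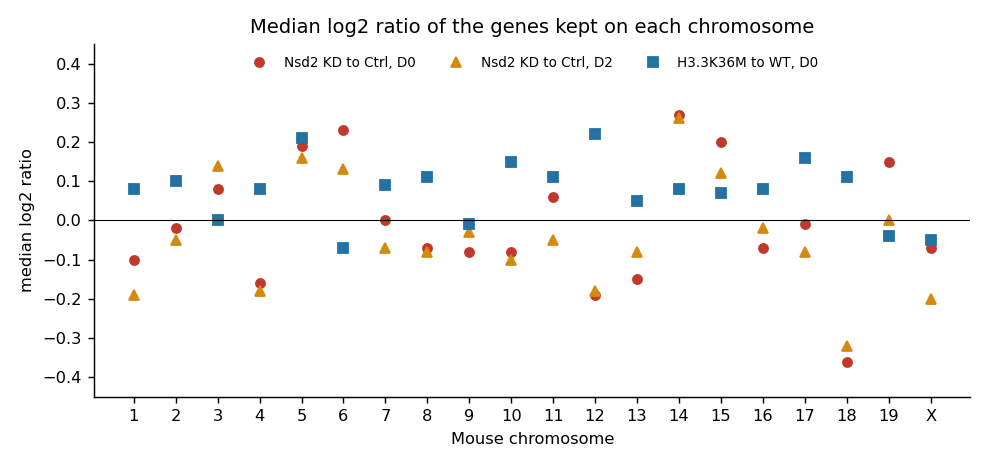
Median log2 ratio of RPKM (vertical axis) over the genes kept on each of 20 mouse chromosomes (horizontal axis), for Nsd2 KD to Ctrl at D0 (circles), the same at D2 (triangles), and H3.3K36M to WT at D0 (squares). The D0 and D2 points of Nsd2 KD lie near each other on most chromosomes, with chromosome 18 lowest (-0.36 and -0.32) and chromosome 14 highest (0.27 and 0.26).

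Control populations of the 2 experiments also differed from each other. The Ctrl D0 library differed by over 2-fold from the WT H3.3 D0 library at 22.2% of 12175 genes, a larger share than the 17.4% of 11982 genes that differed between Nsd2 KD and Ctrl. For this reason levels in the WT and H3.3K36M D0 libraries are given beside the main results.

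*Nsd2* itself (NM_175231, chr5:34163374-34240624 on mm9) had an RPKM of 19.9 in the Ctrl D0 library and 5.85 in the Nsd2 KD D0 library, from 2723 and 705 reads. Its level was thus 3.41-fold lower in the Nsd2 KD library, with a log2 ratio of -1.77 (interval -1.89 to -1.65). It was 17.5 in the WT and 30.9 in the H3.3K36M D0 library, so the Nsd2 KD value was the lowest of the 4. At D2 it was 29 in Ctrl and 7.01 in Nsd2 KD cells. None of the other 14 kept H3K36 methyltransferases and demethylases differed by over 2-fold. *Nsd1*, a paralog that also deposits H3K36me2, was at 14.7 and 12.6, and *Setd2*, the H3K36me3 methyltransferase, at 14.4 and 12.4.

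Genes of PRC2 and of H3K27 demethylation were mostly slightly higher in the Nsd2 KD library. Of 15 genes, 12 had a ratio above 1, with a median log2 ratio of 0.45, against -0.00 over all kept genes. In either direction 3 passed 2-fold, against 17.4% of all kept genes. The Nsd2 KD library was the highest of the 4 D0 libraries for 6 of the 15, against 23.1%. The median RPKM was 7.69 in Ctrl, 13 in Nsd2 KD, 8.2 in WT, and 11 in H3.3K36M cells. The list includes Y-linked *Uty*, at 2.19 in Ctrl and 4.18 in Nsd2 KD cells. *Aebp2*, which encodes an accessory subunit of PRC2, was at 36.1 in Ctrl and 87.4 in Nsd2 KD cells. *Jarid2*, another accessory subunit, was at 2.07 and 4.49, and *Phf19*, which links PRC2 to chromatin, was lower at 3.95 and 1.61. *Ezh2*, the main catalytic subunit, did not pass 2-fold, with 25.8 and 33.6.

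Over all kept genes, 1295 (10.8%) were lower and 792 (6.61%) were higher in the Nsd2 KD library, and the median log2 ratio was -0.00. Lower genes had a median RPKM of 6.54 in Ctrl and 1.72 in Nsd2 KD cells, and higher genes 1.44 and 5.23. The difference exceeded 16-fold for 147 lower and 71 higher genes. The counting interval lay away from a ratio of 1 for 1264 of the lower and 745 of the higher genes, and 72 called genes had fewer than 10 reads in both libraries. At the threshold, *Tacc3* (log2 ratio -1.0003) and *Prr13* (1.0003) were just called, and *Dbndd2* (-0.9996) and *Snx16* (1.0000) were just not.

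**Figure D2:**
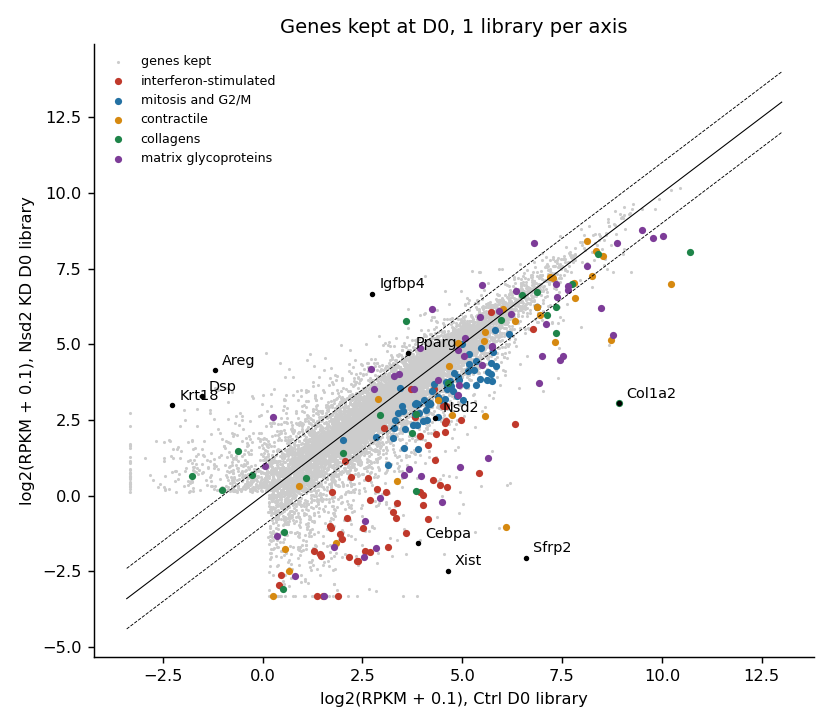
RPKM in the Ctrl D0 library (horizontal axis) against the Nsd2 KD D0 library (vertical axis), both as log2(RPKM + 0.1), for the 11982 genes kept, with members of 5 gene lists coloured and 10 genes named. The solid line marks equal values and the dashed lines 2-fold, and most interferon-stimulated genes and many collagens, contractile, and mitosis genes lie below the lower dashed line.

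Among genes that reached an RPKM of 5 in at least 1 library, the lowest ratio belonged to *Sfrp2*, a secreted Wnt antagonist, on chr3:83570243-83578238 (mm9). It was at 96.4 in Ctrl and 0.143 in Nsd2 KD cells, from 3810 and 5 reads, and was thus 672-fold lower. *Rspo2*, a secreted enhancer of Wnt signalling, was at 6.2 and 0.0172. *Xist* and its antisense partner *Tsix*, which share reads if strand was not used in counting, also ranked among the 4 lowest. They were followed by *Actg2*, an actin of smooth muscle (68.9 and 0.393), *Cemip*, a hyaluronan-degrading protein (60.5 and 0.379), and *Adm*, the vasodilator peptide adrenomedullin (23.2 and 0.166). *Hp*, the haemoglobin-binding protein haptoglobin, had 302 reads in Ctrl and none in Nsd2 KD cells, at least 88.8-fold lower. The remaining genes of the lowest 15 included *Col2a1*, *Gata6*, *Cebpa*, *Il1rn*, *Clca3a1*, and *Gpx3*, the last with a second transcript record of nearly equal values.

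The highest ratios belonged to genes that were close to absent in Ctrl cells. *Krt18*, a keratin of simple epithelia, had an RPKM of 0.108 in Ctrl and 7.79 in Nsd2 KD cells, from 3 and 190 reads. *Areg*, which encodes the EGF receptor ligand amphiregulin, was at 0.338 and 17.5, and *Dsp*, which encodes the desmosomal protein desmoplakin, at 0.248 and 9.62. *Gpr50*, an orphan receptor related to those for melatonin, was at 0.337 and 11.6, and *Il18rap*, a subunit of the interleukin-18 receptor, at 0.673 and 20. *Nkx2-3*, a homeobox factor, was at 0.24 and 9.7, and *Cadm1*, a cell adhesion molecule, at 0.965 and 26.4. The other genes of the highest 15 were *Rem2*, *Cd55*, *Cdh6*, *Atg9b*, *Cacna1i*, *Ces2g*, and *Acsbg1*, and all 15 had an RPKM below 1 in Ctrl cells. At D2 *Areg* was again 0.331 in Ctrl and 22.9 in Nsd2 KD cells, whereas *Kcnn4*, a potassium channel at 0.156 and 7.05 at D0, was not detected in either D2 library.

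Members of 26 gene lists and 6 lists of cell type markers were then examined, each against the 10.8% lower and 6.61% higher genes among all those kept. The lists and their medians are described below and are no independent test, since they were chosen with earlier results of these data known.

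**Figure D3:**
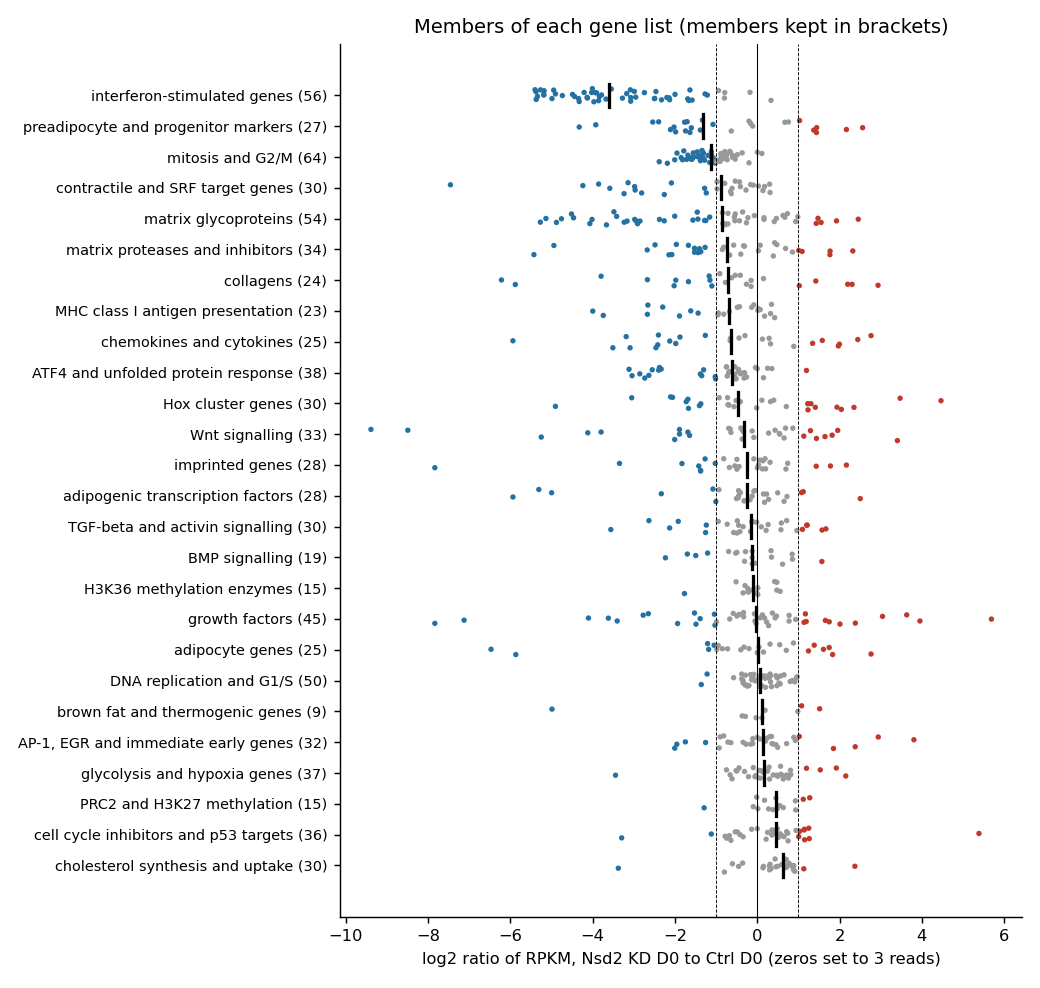
Log2 ratio of Nsd2 KD D0 to Ctrl D0 RPKM (horizontal axis) of every kept member of the 26 gene lists (rows, with the number kept), where a library without reads was set to 3 reads. Black bars are list medians and dashed lines mark 2-fold, with genes past 2-fold lower in blue and higher in red, and the interferon-stimulated genes have the lowest median and the cholesterol genes the highest.

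Interferon-stimulated genes had the largest share of lower genes among the 26 lists. These genes are switched on by the transcription factor complex ISGF3, which binds the interferon-stimulated response element (ISRE), and they encode antiviral proteins. Of 56 kept members, 51 were over 2-fold lower in Nsd2 KD cells and 0 were higher, and the median log2 ratio was -3.73 (-3.61 with genes without reads at their bound). *Isg15*, a ubiquitin-like protein, was at 42.6 in Ctrl and 1.59 in Nsd2 KD cells, 26.7-fold lower (log2 ratio -4.74, interval -5.44 to -4.11). *Bst2*, which tethers budding virus to the cell surface, was at 79.8 and 5.09, and *Ifit1*, which binds viral RNA, at 21.8 and 1.17. *Irf7*, a transcription factor that amplifies interferon production, was at 17.7 and 0.487. Ratios were lowest for *Trim30a* (5.16 and 0.122), the guanylate-binding protein genes *Gbp2* (8.74 and 0.21) and *Gbp7* (5.05 and 0.124), *Oas2* (1.23 and 0.0297), and *Mx2*, which had no reads in Nsd2 KD cells against an RPKM of 2.74 in Ctrl cells. The ISGF3 subunit genes *Stat2* (20.3 and 4.05) and *Irf9* (23.8 and 5.19) differed less. The 5 members that did not pass 2-fold were *Isg20*, *Ifit2*, *Trim25*, *Irf1*, and *Ly6e*. Members of the *Oas*, *Gbp*, *Irgm*, and *Ifi200* families have near-identical copies, and their individual values are uncertain where the counting could split reads between copies.

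Promoters of these genes are shown because they hold the ISRE letters. The sequences are from RefSeq on GRCm38.p6, another build than the mm9 of the gene positions, and run from 250 bases before to 50 after the start. The pattern searched, on both strands, was GAAANNGAAA. Counting a gene when any of its promoters held it, it was present for 21 of 41 kept interferon-stimulated genes with a promoter in the table (51.2%), against 3.6% of 9182 kept genes and 3.44% of all 32851 promoters searched. The promoters of *Isg15* (chr4:156200769-156201068, minus strand) and *Bst2* (chr8:71537423-71537722, minus strand) are given with the matches in capitals. A match is a description of these letters and not of a factor bound there, and the shares describe the list and not the knockdown.
Isg15: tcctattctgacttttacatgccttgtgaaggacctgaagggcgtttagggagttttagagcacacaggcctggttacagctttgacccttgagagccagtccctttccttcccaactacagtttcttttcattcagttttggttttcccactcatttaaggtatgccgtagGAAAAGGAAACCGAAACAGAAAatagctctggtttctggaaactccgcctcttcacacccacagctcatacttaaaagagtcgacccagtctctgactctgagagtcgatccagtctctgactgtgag
Bst2: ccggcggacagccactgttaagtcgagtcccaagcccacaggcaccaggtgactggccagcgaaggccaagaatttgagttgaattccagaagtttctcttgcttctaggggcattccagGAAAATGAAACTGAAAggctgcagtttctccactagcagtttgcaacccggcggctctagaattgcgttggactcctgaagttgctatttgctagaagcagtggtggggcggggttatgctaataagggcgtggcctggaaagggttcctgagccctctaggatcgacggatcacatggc
The capitals cover 3 overlapping matches in *Isg15* and 2 in *Bst2*.

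The level of these genes varied across the other libraries as well. The median RPKM of the 56 genes was 9.16 in Ctrl D0, 0.954 in Nsd2 KD D0, 27.2 in WT H3.3 D0, and 17 in H3.3K36M D0. The Nsd2 KD library was the lowest of the 4 D0 libraries for 55 of 56 genes, against 35.9% of all kept genes. The Ctrl D0 library was itself over 2-fold below the WT D0 library for 46 of them, against 15.1% of all genes, and the part of this spread between control populations in the result was not tested. At D2 the median was 3.02 in Ctrl and 1.3 in Nsd2 KD cells, and 35 of the 56 were over 2-fold lower in Nsd2 KD cells, against 9.73% of all genes kept at D0. In WT H3.3 cells 54 of the 56 were over 2-fold lower at D2 than at D0, against 17.5% of all kept genes. Antigen presentation by MHC class I shares part of this regulation. Of its 23 kept genes 8 were lower and 0 higher, with a median log2 ratio of -0.68. They included *H2-K1* (47.1 and 7.46), *H2-Q4* (21 and 1.31), the peptide transporter *Tap2* (13 and 2.65), and *Psmb8*, an immunoproteasome subunit (8.81 and 0.657). The *H2* genes are close copies whose reads may be shared.

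**Figure D4:**
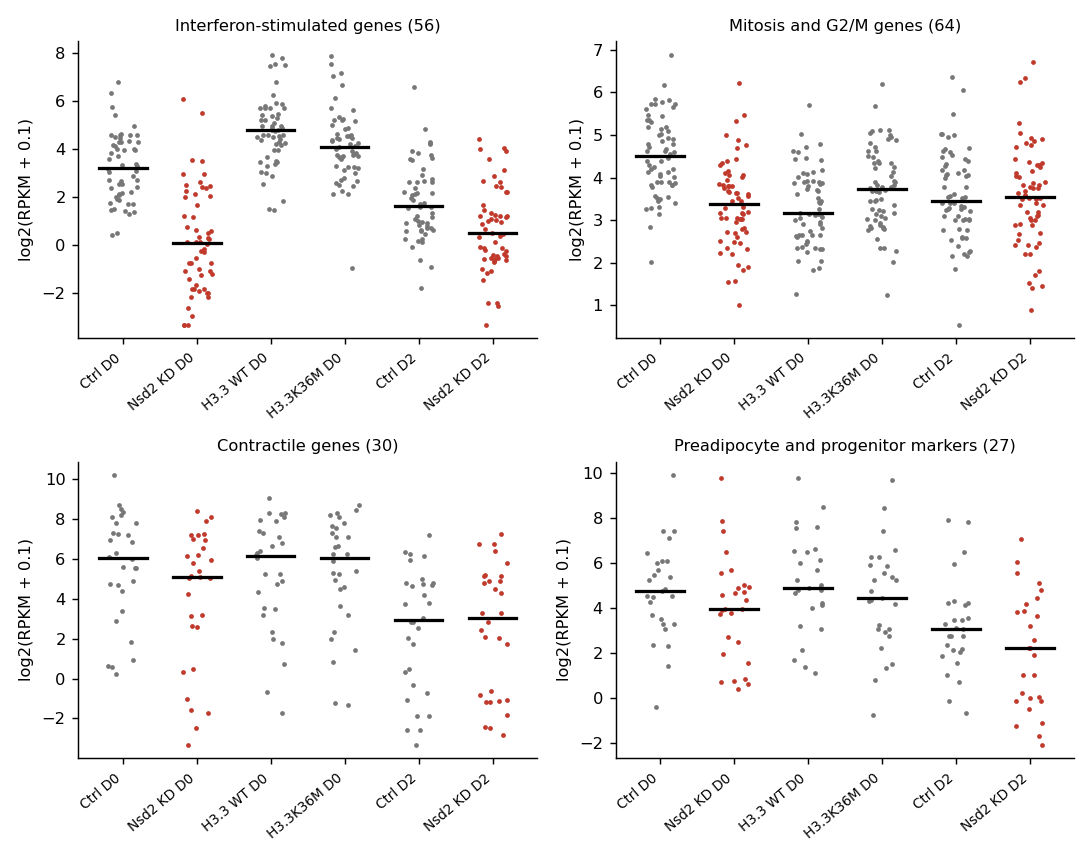
Level of each kept member, as log2(RPKM + 0.1) on the vertical axis, in 6 libraries on the horizontal axis for 4 gene lists, with Nsd2 KD libraries in red and medians as black bars. Interferon-stimulated genes are lowest in the Nsd2 KD D0 library at D0 (median RPKM 0.954), whereas for mitosis genes the Ctrl D0 library stands above the other 5 (median RPKM 22.7).

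Genes of mitosis and G2/M were lower in Nsd2 KD than in Ctrl cells. Between the same 2 libraries, genes of DNA replication and G1/S differed little. Of 64 kept mitosis genes 38 were lower and 0 higher, and the median log2 ratio was -1.12. *Ccnb1*, the cyclin B1 that drives entry into mitosis, was at 52.8 and 16. *Plk1*, a mitotic kinase, was at 32.2 and 8.93, and *Mki67*, the proliferation marker Ki-67, at 48.7 and 13.9. *Ccna2*, cyclin A2, was at 53.3 and 13.8, and *Cenpf*, a kinetochore protein, had the largest difference of the list, 14.8 and 2.83. Of 50 kept replication genes, 2 were lower and 0 higher, and the median log2 ratio was 0.07. The 2 were *Ccnd2* (78.6 and 33.7) and *Ccnd3* (42.1 and 16.4), D-type cyclins of G1. *Cdt1*, which licenses replication origins, was at 27 and 52.8, and *Mcm7*, a subunit of the replicative helicase, at 36.2 and 70.3, neither past 2-fold. Less the median of chromosome 8 (-0.07), the log2 ratio of *Cdt1* was 1.03 and passed 2-fold.

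The mitosis difference varied with the control library. The median RPKM of the 64 genes was 22.7 in Ctrl D0, 10.3 in Nsd2 KD D0, 8.86 in WT H3.3 D0, and 13.2 in H3.3K36M D0, and Ctrl D0 was the highest of the 4 for 58 of 64 genes, against 16.9% of all kept genes. Nsd2 KD D0 was the lowest for 33 of 64, against 35.9%. With the WT D0 library in place of Ctrl D0, an alternative added after the data were seen, 2 of 64 mitosis genes and 57 of 58 interferon-stimulated genes were over 2-fold lower in Nsd2 KD cells, against 21.6% of 12291 genes. Genes were kept there when their RPKM was at least 1 in either of those 2 libraries. Of 50 replication genes, 1 was lower and 14 were higher in Nsd2 KD than in WT cells. At D2 the median log2 ratio of the mitosis genes was 0.00, and 2 of 64 were over 2-fold lower, against 9.73% of all genes kept at D0. Promoters of mitosis genes are known for the cell cycle homology region (CHR) and the CCAAT box, which bind the MuvB complex and NF-Y. The CHR pattern TTTGAA was present for 36 of 53 mitosis genes with a promoter in the table (67.9%), against 14.1% of kept genes, and CCAAT for 38 of 53 (71.7%), against 43.7%. Among the lower mitosis genes the CHR was present for 24 of 33 and CCAAT for 27 of 33. These shares describe the list and not the knockdown. The promoters of *Ube2c* (chr2:164769679-164769978, plus strand) and *Racgap1* (chr15:99651607-99651906, minus strand) are shown with both patterns, on either strand, in capitals.
Ube2c: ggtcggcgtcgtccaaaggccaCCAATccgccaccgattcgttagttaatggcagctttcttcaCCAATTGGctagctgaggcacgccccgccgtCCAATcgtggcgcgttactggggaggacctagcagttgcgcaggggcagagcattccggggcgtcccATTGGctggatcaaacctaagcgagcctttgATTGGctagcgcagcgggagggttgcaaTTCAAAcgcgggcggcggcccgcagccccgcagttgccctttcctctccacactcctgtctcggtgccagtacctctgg
Racgap1: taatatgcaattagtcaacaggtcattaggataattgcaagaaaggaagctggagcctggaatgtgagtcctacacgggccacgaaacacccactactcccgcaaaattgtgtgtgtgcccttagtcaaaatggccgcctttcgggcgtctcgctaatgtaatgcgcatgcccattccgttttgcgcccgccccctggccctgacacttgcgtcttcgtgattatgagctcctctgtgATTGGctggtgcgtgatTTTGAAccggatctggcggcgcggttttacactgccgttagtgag
*Ube2c*, a ubiquitin-conjugating enzyme of the anaphase-promoting complex, was at 57.1 in Ctrl and 19.4 in Nsd2 KD cells, and *Racgap1*, needed for cytokinesis, at 54.6 and 26.9.

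Among genes linked to cell cycle arrest, more were higher than lower relative to Ctrl cells. Of 36 kept cell cycle inhibitors and p53 targets, 8 were higher and 2 lower, with a median log2 ratio of 0.46. *Cdkn1a*, which encodes the CDK inhibitor p21, was at 127 in Ctrl and 258 in Nsd2 KD cells, and *Mdm2*, the ubiquitin ligase of p53, at 44.1 and 97.9. *Perp*, a desmosomal p53 target, was at 0.0799 and 3.35, and *Zmat3* at 14.4 and 34.4, whereas *Dram1*, a lysosomal p53 target, was at 11.1 and 1.12. In the WT and H3.3K36M D0 libraries *Cdkn1a* was at 182 and 202, between the other values. The median RPKM of the list was 13.6 in Ctrl, 15.1 in Nsd2 KD, 18.1 in WT, and 18.3 in H3.3K36M cells, and Ctrl was over 2-fold below WT for 12 of 36, against 15.1% of all genes. With the WT D0 library in place of Ctrl D0, the direction changed, and 7 of 36 were lower and 3 higher in Nsd2 KD cells. The share of all genes lower there was 21.6%. SV40T is known to bind p53. At D2 *Cdkn1a* was at 119 in Ctrl and 96.6 in Nsd2 KD cells.

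Contractile genes, which serum response factor (SRF) controls together with its cofactors through the CArG box, were lower or similar. Of 30 kept members 13 were lower and 0 higher, and the median log2 ratio was -0.88. *Acta2*, smooth muscle actin, was among the most abundant transcripts in Ctrl cells, with an RPKM of 1193 against 126 in Nsd2 KD cells. *Tagln* (transgelin) was at 425 and 35.3, *Myl9*, a myosin light chain, at 161 and 33.6, and *Cnn1*, which encodes calponin, at 47.7 and 6.04. *Srf* itself was at 25.5 and 19.2. The Ctrl D0 library was the highest of the 4 D0 libraries for 16 of the 30, against 16.9% of all kept genes, and Nsd2 KD D0 was the lowest for 21, against 35.9%. The median RPKM was 67 in Ctrl, 34.9 in Nsd2 KD, 70.5 in WT, and 68.1 in H3.3K36M cells. *Acta2* was at 529 in the WT and 424 in the H3.3K36M D0 library, and *Tagln* at 136 and 187. At D2 these transcripts were low in both populations, with *Acta2* at 7 in Ctrl and 5.41 in Nsd2 KD cells, and 3 of the 30 were lower and 3 higher, against 9.73% and 5.52% of all genes kept at D0. *Myh11*, the smooth muscle myosin heavy chain, was at 1.48 and 0.0783 at D0. The CArG box, searched by its consensus on both strands, was found for 5 of 27 members with a promoter in the table (18.5%), against 1.6% of kept genes. Among the lower members it was found for 3 of 10. The list was made of SRF targets, so these shares describe the list and not the knockdown. The promoters of *Cnn2* (chr10:79988350-79988649, plus strand) and *Myl9* (chr2:156775214-156775513, plus strand) are shown with the box in capitals.
Cnn2: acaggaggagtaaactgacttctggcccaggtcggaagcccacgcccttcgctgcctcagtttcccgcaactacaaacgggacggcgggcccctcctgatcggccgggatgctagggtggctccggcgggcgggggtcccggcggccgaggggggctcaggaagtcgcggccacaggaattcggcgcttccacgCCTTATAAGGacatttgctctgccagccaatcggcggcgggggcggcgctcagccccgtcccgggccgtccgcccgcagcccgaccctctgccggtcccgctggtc
Myl9: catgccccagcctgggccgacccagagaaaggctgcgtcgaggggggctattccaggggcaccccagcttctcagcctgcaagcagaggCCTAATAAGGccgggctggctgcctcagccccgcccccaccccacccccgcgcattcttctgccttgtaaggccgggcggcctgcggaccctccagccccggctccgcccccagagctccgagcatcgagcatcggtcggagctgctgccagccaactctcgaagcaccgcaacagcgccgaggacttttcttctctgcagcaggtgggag
*Cnn2*, another calponin, was at 225 in Ctrl and 92.7 in Nsd2 KD cells.

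Extracellular matrix genes were lower in larger number than they were higher. Of 24 kept collagens 10 were lower and 5 higher, with a median log2 ratio of -0.70, and the summed RPKM of the list was 3547 in Ctrl and 1189.7 in Nsd2 KD cells. *Col1a1* and *Col1a2*, which encode the 2 chains of type I collagen, differed from each other in their ratios. *Col1a1* was at 1678 in Ctrl and 263 in Nsd2 KD cells, 6.37-fold lower, and *Col1a2* at 484 and 8.21, 59-fold lower, and their counting intervals (-2.69 to -2.65 and -5.99 to -5.78 on the log2 scale) did not overlap. In the WT and H3.3K36M D0 libraries *Col1a1* was at 560.2 and 223 and *Col1a2* at 143 and 126, so the Ctrl value was the highest of the 4 for both, and *Col1a1* was lowest in H3.3K36M cells. Summed over the list the RPKM was 2055 in WT and 1196 in H3.3K36M cells, and the median was 14.3 in Ctrl, 7.3 in Nsd2 KD, 19.1 in WT, and 16.2 in H3.3K36M cells. Ctrl was the highest of the 4 for 12 of 24 collagens, against 16.9% of all kept genes. At D2 *Col1a1* was at 89.9 and 13.7 and *Col1a2* at 35.3 and 1.32. *Col3a1* was at 162 and 41.1 at D0, and *Col8a1*, a short-chain collagen, at 14.3 and 1.02. *Col18a1*, a collagen of basement membranes, was higher, at 12 and 55.

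Of 54 kept matrix glycoproteins, proteoglycans, and crosslinkers, 26 were lower and 5 higher, with a median log2 ratio of -0.85. *Lox*, the enzyme that crosslinks collagen, was at 439 and 39.1, *Fbn1*, the microfibril protein fibrillin-1, at 122 and 13, and *Postn* (periostin) at 184 and 24.5. *Fbn2*, the related fibrillin-2, was at 7.12 and 0.203, and *Eln*, which encodes elastin, at 1.65 and 0.0607. *Fn1*, which encodes fibronectin, did not pass 2-fold, with 721 and 439.6. The median RPKM of the 54 was 33.2 in Ctrl, 23.3 in Nsd2 KD, 48.3 in WT, and 19.3 in H3.3K36M cells, and Nsd2 KD was the lowest of the 4 for 27 of them, against 35.9% of all kept genes. The small leucine-rich proteoglycans *Aspn*, *Omd*, and *Ogn* lie side by side on chr13:49639812-49719869 (mm9), and all 3 were lower, with *Ogn* at 22.6 and 0.768. Of 34 kept matrix proteases and inhibitors, 15 were lower and 5 higher, with a median log2 ratio of -0.74. *Adamts2*, which trims procollagen, was at 30.7 and 0.997, *Adamts9*, a proteoglycan-cleaving protease, at 7.37 and 0.171, and *Serpine2*, a protease inhibitor, was higher at 20.6 and 70.3.

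Most preadipocyte and progenitor markers were detected in both libraries as the label states, yet 15 of 27 were lower and 6 higher, with a median log2 ratio of -1.33. *Pdgfra*, a growth factor receptor of adipocyte progenitors, was at 22.9 in Ctrl and 1.51 in Nsd2 KD cells, and *Vcam1*, an adhesion molecule, at 28.5 and 1.42. *S100a4*, a calcium-binding protein of fibroblasts, was at 171 and 29.4. *Pdgfrb* was at 64 and 25.4, *Thy1* at 41.3 and 13.3, and *Ly6a*, which encodes Sca-1, at 67.7 and 25.9. Among those higher, *Dlk1*, the preadipocyte factor Pref-1 and an imprinted gene, was at 38.1 and 171. *Alcam* was at 2.58 and 15.2 and *Cd24a* at 4.93 and 13.4. In H3.3K36M cells *Pdgfra* was at 8.3 against 29.5 in WT cells, and *Dlk1* at 21.7 against 27.6.

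Markers of other cell types were near 0 with few exceptions. Of the 12 markers of macrophages and blood that were found 1 was kept (*Cd14*, 2.47 and 7.97), and the summed RPKM was 3.78 in Ctrl and 8.45 in Nsd2 KD cells, with *Ptprc* at 0 and 0.0109. Of 12 endothelial markers 1 was kept (*Egfl7*, 3.3 and 2.46; summed RPKM 4.28 and 3.25, *Cdh5* at 0 and 0.0144). Of 18 skeletal muscle markers 2 were kept, with *Acta1* at 10.5 and 1.68 and *Pax3* at 5.62 and 7.6, a sum of 17.8 and 9.88, and *Myog* at 0 in both. Of 11 epithelial markers 2 were kept, *Krt18* and *Krt19* (6.3 and 4.26), with a sum of 6.58 and 12.3, and *Cdh1* was at 0.0115 and 0.026 and *Krt8* at 0 and 0.0318 although *Krt18* was at 0.108 and 7.79. Of 12 glial and neuronal markers 1 was kept (*Tubb3*, 23.5 and 2.66), with a sum of 25 and 5.16 and *Sox10* at 0.0187 and 0. Of 13 markers of cartilage and bone 4 were kept, with *Col2a1* at 39.9 and 0.338, *Sox5* at 1.74 and 8.84, *Runx2* at 7.26 and 13.7, and *Alpl* at 4.77 and 0.981, a sum of 54.5 and 25.4, and *Acan* at 0.0138 and 0.

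Adipogenic transcription factors differed in both directions before differentiation. Of 28 kept factors 6 were lower and 3 higher, with a median log2 ratio of -0.24. With the WT D0 library in place of Ctrl D0, 13 of 29 were lower and 3 higher, against 21.6% of all genes lower. *Cebpa* (NM_007678, chr7:35904312-35906945 on mm9), which encodes C/EBPα, had an RPKM of 14.7 in Ctrl and 0.239 in Nsd2 KD cells, from 766 and 11 reads. That is 61.4-fold lower, with a log2 ratio of -5.94 (interval -6.95 to -5.09), and the WT and H3.3K36M D0 libraries had 6.64 and 6.33. *Klf15* was at 1.99 and 0.05 and *Klf2*, which represses *Pparg*, at 9.09 and 0.284. *Cebpd*, an early factor of adipogenesis, was at 25.3 and 5.03, whereas *Cebpb*, its partner, was at 79.9 and 77.1. *Pparg* (NM_011146, chr6:115311239-115440419) was higher in Nsd2 KD cells, at 12.5 and 26.4, 2.11-fold (log2 ratio 1.08, interval 0.91 to 1.25). Less the median of chromosome 6 (0.23), its log2 ratio was 0.85 and did not pass 2-fold. *Klf5* was at 1.35 and 7.65, and *Gata3*, which restrains adipogenesis, at 2.57 and 5.57.

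Relative to Ctrl cells, adipocyte genes were not lower as a group at D0. Of 40 that were found 25 were kept, of which 5 were lower and 6 higher, and the median log2 ratio was 0.01. The 5 lower were *Hp*, *Agt* (angiotensinogen, 14.6 and 0.25), *Fabp5* (18.5 and 8), *Acsl1* (4.92 and 2.17), and *Fabp4*, the fatty acid binding protein aP2 (14.8 and 7.16). The 6 higher were *Irs2*, an insulin receptor substrate (6.46 and 23), *Angptl4*, an inhibitor of lipoprotein lipase (9.1 and 30.6), the lipid droplet proteins *Plin2* (19.5 and 59.6) and *Plin4* (10.4 and 24.6), *Lpin1* (2.98 and 7.79), and *Retn*, whose 2 and 12 reads give little precision. *Lpl* (22.2 and 11.5) and *Scd1* (27 and 33.5) did not pass 2-fold, and *Cd36* (0.0149 and 0.0338) and *Ppargc1a* (0.141 and 0.479) were not kept. The median RPKM of the 25 was 10.2 in Ctrl, 8 in Nsd2 KD, 14.9 in WT, and 10.2 in H3.3K36M D0. With the WT D0 library in place of Ctrl D0, 11 of 28 members were lower and 6 higher in Nsd2 KD cells. The share of all genes lower there was 21.6%. At D2 the same list had 18 of 25 members over 2-fold lower in Nsd2 KD cells and 0 higher, against 9.73% and 5.52% of all genes kept at D0, with a median log2 ratio of -1.55.

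**Figure D5:**
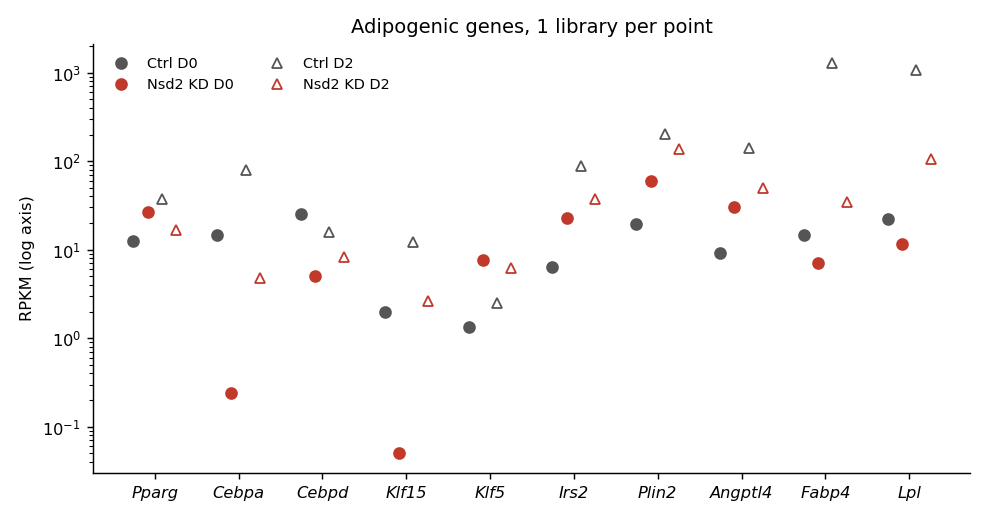
RPKM on a log axis (vertical) of 10 adipogenic genes (horizontal) in the Ctrl (grey) and Nsd2 KD (red) libraries at D0 (filled circles) and D2 (open triangles), 1 library per point. *Cebpa* and *Klf15* are lower in Nsd2 KD cells on both days, whereas *Pparg*, *Irs2*, and *Angptl4* are higher in Nsd2 KD cells at D0 and lower at D2.

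Few brown fat genes reached an RPKM of 1 at D0. Of 29 that were found 9 were kept, of which 1 was lower and 2 were higher, with a median log2 ratio of 0.11. *Ucp1*, the uncoupling protein of brown fat, was at 0.0308 in Ctrl and 0 in Nsd2 KD cells. *Lhx8*, a homeobox gene of brown fat, had 108 reads in Ctrl and none in Nsd2 KD cells, at least 31.8-fold lower, and at D2 it was at 5.37 and 0.0286. *Zic1*, another gene of classical brown fat, was higher, at 5.59 and 16, as was *Esrra*, a nuclear receptor that drives mitochondrial genes (15.8 and 33.3).

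Relative to Ctrl cells, secreted signals also differed in both directions. Of 33 kept Wnt genes 10 were lower and 7 higher, with a median log2 ratio of -0.33. Besides *Sfrp2* and *Rspo2*, the Wnt antagonist *Sfrp1* was at 44 in Ctrl and 1.15 in Nsd2 KD cells. The receptor *Fzd6* was higher, at 2.08 and 22.1, as was *Lef1*, a transcription factor of the pathway (1.07 and 3.78). Of 45 kept growth factors and receptors 13 were lower and 11 higher, with a median log2 ratio of -0.03. *Igf2* was at 3.57 and 0.0155, *Igfbp3* at 25.4 and 1.48, and *Igfbp4*, which also binds insulin-like growth factors, at 6.59 and 102. Of 30 kept TGF-beta and activin genes 6 were lower and 5 higher, with a median of -0.16 and with *Ltbp2* at 130.1 and 11 and *Inhba*, a subunit of activin, at 19 and 60.3. Of 19 kept BMP genes 4 were lower and 1 higher, with a median of -0.13. The higher gene was the antagonist *Grem1* (60.9 and 181), and the lower ones included *Id2*, a target of the pathway (29.6 and 10.5). With the WT D0 library in place of Ctrl D0, 12 of 34 Wnt genes were lower and 5 higher. Of 47 growth factors and receptors 25 were lower and 7 higher there. TGF-beta and activin genes had 11 lower and 1 higher of 30, and BMP genes 4 and 3 of 20. The share of all genes lower there was 21.6%.

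Of 25 kept chemokines and cytokines 11 were lower and 6 higher, with a median log2 ratio of -0.65. *Cxcl12* was at 169 and 14.8 and *Ccl2* at 253 and 47.3, whereas *Ptgs2*, the inducible cyclooxygenase, was at 5.9 and 32.1. *Il6* was at 4.05 and 0.475 and *Saa3*, an acute phase protein, at 8.86 and 0.973. *Ccl2* was at 1216 in the WT and 522 in the H3.3K36M D0 library, and *Saa3* at 417 and 99.6, so the Ctrl cells were themselves below the WT cells for both. Ctrl D0 was over 2-fold below WT D0 for 17 of the 25, against 15.1% of all genes. With the WT D0 library in place of Ctrl D0, 27 of 36 were lower and 1 higher in Nsd2 KD cells, against 21.6% of all genes lower.

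Metabolic and stress lists varied in how many genes passed 2-fold. In either direction the share was below the 17.4% of all kept genes for the cholesterol and the glycolysis and hypoxia lists. Of 38 kept ATF4 and unfolded protein response genes 14 were lower and 1 higher, with a median log2 ratio of -0.62. *Asns* (asparagine synthetase) was at 54.2 and 9.23, *Slc7a5*, an amino acid transporter, at 45.2 and 6.79, and *Atf5*, a related factor, at 85.1 and 11.8, whereas *Atf4* was at 99.2 and 82.9. The median RPKM of these genes was 28 in Ctrl D0 and 11.3 in Nsd2 KD D0, but 61.2 in WT and 67 in H3.3K36M D0. With the WT D0 library in place of Ctrl D0, 30 of 40 were lower and 0 higher, against 21.6% of all genes lower. Of 30 kept cholesterol genes 25 had a ratio above 1 and the median log2 ratio was 0.63, while only 2 passed 2-fold higher and 1 lower, and the Nsd2 KD library was the highest of the 4 for 23 of them, against 23.1% of all kept genes. The lower gene, *Abca1* (7.09 and 0.682), and the higher *Abcg1* (0.444 and 2.3) both encode cholesterol exporters, and the other higher gene was *Fdft1*, which encodes squalene synthase (9.53 and 20.9). Of 37 kept glycolysis and hypoxia genes 1 was lower and 4 higher, with a median of 0.16. The lower one was *Epas1*, which encodes the hypoxia factor HIF-2α (3.85 and 0.354), and *Ndrg1*, a hypoxia target, was higher (3.87 and 14.7). Of 32 immediate early genes 4 were lower and 5 higher, with a median of 0.13 and with *Fos* at 8.37 and 2.08, *Egr1* at 58.2 and 15 and *Nr4a1* at 5.54 and 20.

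Hox genes, which mark position along the body axis, differed in both directions. Of 30 kept members 9 were lower and 9 higher, with a median log2 ratio of -0.47. The lower ones included *Hoxa2*, *Hoxa3*, *Hoxa4*, *Hoxa5*, *Hoxb3*, *Hoxd4*, *Hoxd8*, and *Hoxd9*, and the higher ones *Hoxa9*, *Hoxa10*, *Hoxa11*, *Hoxc6*, *Hoxc9*, *Hoxc10*, *Hoxc11*, *Hoxc12*, and *Hoxc13*. Within the Hoxa cluster these lower genes were thus at the anterior end and the higher ones at the posterior end. *Hoxa2* was at 3.07 in Ctrl and 0.102 in Nsd2 KD cells and *Hoxa11* at 0.226 and 2.51, and *Hoxc11* was at 0.221 and 4.89. *Hoxa11* was at 0.25 in WT and 3.25 in H3.3K36M cells. Of the 30 Hox genes, 0 were over 2-fold lower in H3.3K36M than in WT cells, against 6.28% of all kept genes. Another 4 were over 2-fold higher, against 3.61%, and the median log2 ratio was 0.18. Of 28 kept imprinted genes 8 were lower and 3 higher, with a median log2 ratio of -0.26 and with *Grb10* at 28.3 and 2.77 and *Peg10* at 31.5 and 108. Of the 8, *Snrpn* and *Snurf* share a transcript and their values (3.19 and 1.22). Transcript records without a symbol could not be placed in this or any other list. They include NR_001592, among the largest differences over both days (15.4 and 0.263 at D0, 50.4 and 0.108 at D2).

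Called genes lay beside genes called in the same direction in a larger share of cases than kept genes in general. Of 974 lower genes whose nearest kept gene lay within 100 kb, 194 (19.9%) had a lower neighbour, against 9.7% of all 9617 kept genes with such a neighbour. Of 570 higher genes 97 (17%) had a higher neighbour, against 5.6%. The 17% became 10.4% with RPKM of at least 5 in either library. The share of all genes under that filter is not given here, so the 10.4% cannot be set against the 5.6%. Runs of at least 3 adjacent kept genes called in the same direction numbered 16 for lower and 10 for higher genes, with 54 and 32 genes. The longest was *Hoxc13* to *Hoxc9* on chr15:102751534-102815530 (mm9), with 5 higher genes. Several lower runs were families of interferon-stimulated genes, such as *Ifit3* to *Ifit1* on chr19:34658021-34724499, *Oas2* to *Oas1a* on chr5:121180342-121357536, and the *Gbp* genes on chr3:142193302-142407874. Members of such families are copies of each other, so their reads may not be independent.

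The D2 libraries, which share no library with the D0 comparison but come from the same 2 populations, were examined for the genes called at D0. Of the 1295 genes lower at D0, 608 (46.9%) were also over 2-fold lower at D2, against 9.73% of all genes kept at D0. Another 21 (1.62%) were over 2-fold higher, against 5.52%. Of the 792 genes higher at D0, 348 (43.9%) were over 2-fold higher at D2, against 5.52%, and 59 (7.45%) were over 2-fold lower, against 9.73%. With a pseudocount of 1 added to each RPKM the share of higher genes was 23.4%, against 2.18% of all kept genes. The 608 were 52.1% of the genes lower at D2 and the 348 were 52.6% of those higher. Besides *Sfrp2* and *Col1a2*, genes with large differences on both days included *Slc38a4*, an amino acid transporter (32.2 and 0.73 at D0, 3.23 and 0.0864 at D2), *Lama4*, a laminin chain (5.78 and 0.456, then 21.1 and 0.169), and *Cdh6*, a cadherin that was higher (0.365 and 11.1, then 0.415 and 8.04).

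In the H3.3 experiment, which shares neither libraries nor perturbation with this comparison, the overlap was smaller. Of the 1295 lower genes 297 (22.9%) were over 2-fold lower in H3.3K36M than in WT cells at D0, against 6.28% of all kept genes, while 68 (5.25%) were higher, against 3.61%. Of the 792 higher genes 154 (19.4%) were higher in H3.3K36M cells, against 3.61%, and 108 (13.6%) were lower, against 6.28%. With a pseudocount of 1 the 19.4% became 8.79%, against 1.54% of all kept genes, and it was 12.8% with RPKM of at least 5 in either D0 library. The share of all genes under that last filter is not given here, so the 12.8% cannot be set against the 3.61%. The 297 were 39.4% of the kept genes lower in H3.3K36M cells and the 154 were 35.6% of those higher.

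In all 3 comparisons, Nsd2 KD at D0 and D2 and H3.3K36M at D0, 196 genes (1.64% of those kept) were over 2-fold lower and 97 (0.81%) over 2-fold higher. Of these, 9 and 6 were transcript records without a symbol, which may repeat a gene already counted. The lower ones included *Sfrp2* (log2 ratios of -9.39, -6.13, and -3.98 in that order), *Rspo2* (-8.49, -2.81, and -4.42), *Cxcl12* (-3.51, -3.71, and -4.52), *Aspn* (-5.27, -5.04, and -3.63), and *Agt* (-5.87, -2.18, and -3.86). The higher ones included *Fzd6* (3.41, 3.29, and 1.29), *Cd55*, a complement regulator (5.03, 4.89, and 1.81), and *Dsp* (5.28, 6.89, and 1.17).

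Finally, the called genes were followed in the normal course of WT H3.3 cells from D0 to D2. Of the lower genes 559 (43.2%) were over 2-fold lower at D2 than at D0 in WT cells, against 17.5% of all kept genes, and 115 (8.88%) were higher, against 8.01%. Of the higher genes 293 (37%) were lower at D2 and 121 (15.3%) were higher. With a pseudocount of 1 added to each RPKM, 17.4% of the higher genes were lower at D2, against 12.3% of all kept genes.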

How the data were processed

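RNA-Seq data were deposited as 1 table of 29082 RefSeq transcripts per library. RPKM values were made by the authors from reads counted per transcript, mapped to mm9, and the submitters' processing notes name CASAVA 1.8.2. The aligner and counter for RNA-Seq, and whether strand was used, are not given in the sources used here.

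Whole reads were recovered from the steps between RPKM values. Genes were kept at RPKM of at least 1 in either library and called past 2-fold. With 1 library per condition no test was made. Clopper-Pearson intervals used scipy 1.17.1 under Python 3.11.15, tables pandas 2.3.3, and figures matplotlib 3.10.9. Scripts were tested on simulated data. RefSeq symbols matched 97.8% of transcripts. Gene positions are those of mm9 (GENCODE M1).

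Genes were named as the 15 lowest and 15 highest ratios with RPKM of at least 5 in the higher library, up to 5 largest differences per list, the 10 largest per direction over D0 and D2, and genes the study names. Other named genes were chosen after their values were seen. The comparison and lists were chosen with earlier results of these data known. Alternatives covered the filter, pseudocount, rescaling, transcripts, thresholds, and neighbour distance, and 2 more (another control library and centring by chromosome) were added after the data were seen. Some genes are not reported here.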

Additional observations from a re-analysis of the deposited data

Results flagged for a closer look

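Among 167 named genes, 5 were over 2-fold higher in Nsd2 KD than in Ctrl cells at D0 and over 2-fold lower at D2. With 1 library per condition and day, the difference between the days was not tested. The log2 ratio of *Pparg* was 1.08 at D0 and -1.16 at D2, and its RPKM in Ctrl and Nsd2 KD cells was 12.5 and 26.4 at D0 and 37.7 and 16.9 at D2. Less the median of chromosome 6, an alternative added after the data were seen, its log2 ratio was 0.85 at D0, within 2-fold, and -1.29 at D2. The Nsd2 KD value thus dropped between the days while the Ctrl value increased. The ratio of *Irs2* was 1.83 at D0 and -1.23 at D2, that of *Angptl4* 1.75 and -1.51, and that of *Igfbp4* 3.95 and -1.89. *Retn* had ratios of 2.77 and -1.93, from 2 and 12 reads at D0 and 26 and 6 reads at D2. Such reversals were less frequent among the called genes than these D2 differences were among all genes kept at D0. Of the 792 genes higher at D0, 59 (7.45%) were lower at D2, against 9.73% of all kept genes. Of the 1295 genes lower at D0, 21 (1.62%) were higher at D2, against 5.52%.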

How the results depend on the processing

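The counts of lower and higher genes, 1295 and 792, followed the filter and threshold. They were 3116 and 2327 for genes above 0 in either library, 811 and 460 with RPKM of at least 1 in both, and 747 and 415 with at least 5 in either. They were 2337 and 1745 past 1.5-fold and 664 and 384 past 3-fold. With a pseudocount of 1 the higher genes numbered 512, and the log2 ratio of *Nsd2* was -1.61. With that pseudocount 23.4% of the genes higher at D0 were higher at D2, 8.79% were higher in H3.3K36M cells, and 17.4% were lower at D2 in WT cells. With RPKM of at least 5 in either D0 library, 12.8% were higher in H3.3K36M cells, and 10.4% of higher genes had a higher neighbour. The shares of all genes under that filter are not given here. Against the WT D0 library, an alternative added after the data were seen, 2661 genes were lower and 1200 higher, and 2 of the mitosis genes were lower. Several other list counts also moved against that library, and not all are given with those lists. Of 30 cholesterol genes 17 were higher and 3 lower there, and of 37 glycolysis and hypoxia genes 12 were lower and 4 higher. MHC class I genes had 16 lower and 0 higher of 24. The other 76 values that answer a comparison stayed within 1.5 times the main count or share, or within the counting interval. Of 195 values for 39 named genes, 40 moved past the counting interval, all at a pseudocount, and 0 changed direction. No paired analysis was possible because each condition had 1 library. Replicates could not be left out for the same reason. Depth limits genes of few reads, and 35 called genes had at most 3 reads in both libraries.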
